A study of Mus musculus with 24 samples.

Results

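The interleukin-1 (IL-1) family group described here holds 10 genes, chosen by name from the 24411 genes of the expression tables: the ligands *Il1a*, *Il1b*, *Il18* and *Il33*, the receptor antagonist *Il1rn*, the receptor chains *Il1r1*, *Il1rap* and *Il1rl1*, the protease gene *Casp1* and the sensor gene *Nlrp3*. IL-1α and IL-1β bind the receptor chain encoded by *Il1r1*, which signals after pairing with the accessory protein encoded by *Il1rap*, and the antagonist encoded by *Il1rn* occupies the same receptor without signalling. IL-1β and IL-18 are made as precursors that caspase-1 cleaves within inflammasomes such as the one built on NLRP3, whereas IL-33 acts through its own receptor, encoded by *Il1rl1*, with the same accessory protein. In brain, microglia are a well-known source of IL-1, and IL-1α is one of the microglial signals known to drive astrocytes into a reactive state.

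RNA-seq was used to ask how purified mouse astrocytes and microglia carrying the *SOD1G93A* mutation, a model of amyotrophic lateral sclerosis (ALS), differ from wild-type (WT) cells at rest and after activation. The analysis took 21 of the 24 samples, 3 per condition in 7 conditions, and left out the 3 samples of *SOD1G93A* microglia at rest, which have no values in the tables used. Depth was 2016139 to 11570122 reads on genes per library, with a median of 5098168. The lowest median depth of a condition was 3637657 reads, in WT quiescent astrocytes, and the highest was 7251063 reads, in *SOD1G93A* quiescent astrocytes.

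Astrocytes of both genotypes were immunopanned from the cortices of mouse pups on HepaCAM after panning steps that remove microglia, endothelial cells and the oligodendrocyte lineage, and were kept in serum-free medium. Quiescent astrocytes received PBS, and activated astrocytes received 3 ng/mL IL-1α, 30 ng/mL TNFα and 400 ng/mL C1q together, so that IL-1α itself was part of the stimulus. Microglia were isolated from brains of mouse pups on CD11b and kept in serum-free medium, and they received PBS (quiescent) or 50 ng/mL lipopolysaccharide (LPS), a bacterial ligand of Toll-like receptor signalling. *SOD1G93A* mice carry a transgene of mutant human *SOD1* under the human promoter and were bred to C57BL/6J. All cells therefore came from young mice and were studied in culture, away from the other cells of a diseased spinal cord. The labels number the replicates of a condition from 1 to 3 without saying whether each is a separate animal, so the p-values given measure the spread between these samples.

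The cell type labels were compared with marker genes. In CPM (a gene's reads scaled to 1000000 reads on genes in the library), the summed level of 16 astrocyte markers was 5536 to 8223 in the 12 astrocyte libraries and 163 to 298 in the 9 microglia libraries. The summed level of 22 microglia markers was 21686 to 23043 in the 3 WT quiescent microglia libraries, 9676 to 10629 in the 3 WT LPS libraries and 10328 to 12495 in the 3 *SOD1G93A* LPS libraries. The markers followed the labels in all 21 libraries, but microglia markers were present at a low level in every astrocyte library. Their sum was 486, 627 and 747 in the 3 WT quiescent astrocyte libraries, 885, 900.0 and 654 in *SOD1G93A* quiescent astrocytes, 547, 795 and 509 in WT activated astrocytes, and 644, 450.2 and 502 in *SOD1G93A* activated astrocytes. Of the 22 markers, 21 or 22 had a read in every library of each astrocyte condition, and no marker was at 0 throughout a condition. *Sall1* was the most abundant of them in astrocytes, at 138 to 190 CPM, and it lay at 116 to 126 in quiescent microglia, so it did not separate the cell types in these cultures. It was left out of the 21-marker sums used below, a choice made after its values were seen.

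Some libraries stood apart from the others of their condition. For each of the 21 pairs of replicate libraries, the spread of gene counts was set against counting error as a chi-square per degree of freedom, which is 1 when replicates differ by counting error alone, and it ranged from 1.48 to 20.3. The third *SOD1G93A* LPS library gave 15.7 and 20.3 against the other 2, and the first WT LPS library gave 14.0 and 12.8. Among astrocytes, the third WT quiescent library gave 8.97 and 6.50, and the first *SOD1G93A* quiescent library gave 6.47 and 9.87. Fits without these 4 libraries were chosen after seeing the data, and their values are given beside several of the results.

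Tests were made with limma on log2(normalized count + 1), over all genes with a mean normalized count of at least 10, within the 6 libraries of each comparison or, for the response of *SOD1G93A* astrocytes and the interaction, in a joint fit of the 12 astrocyte libraries, and a gene is called changed at an adjusted p-value under 0.001 and more than 2-fold. The comparisons share libraries: activation and genotype in quiescent astrocytes both use the WT quiescent astrocytes, activation and genotype in activated astrocytes both use the WT activated astrocytes, and the LPS response and genotype in LPS microglia both use the WT LPS microglia. Each comparison is therefore described by its own values.

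LPS changed most of the group in WT microglia. Of the 10 genes, 9 had enough reads to be tested and 6 were called higher (*Il1a*, *Il1b*, *Il1rn*, *Il1rap*, *Casp1* and *Nlrp3*), where 10.2% of the 10866 genes tested were called higher. *Il1rl1* was called lower, with 10.6% of all tested genes called lower. *Il18* and *Il1r1* were tested and not called, and *Il33* was too low to be tested. The *Il1rap* call was kept in 9 of 17 alternatives, as given with that gene below. As single libraries were left out, 5 to 7 members were called, counting both directions. The median log2 fold change of the 9 tested genes was 2.14, beside 0.00 for all genes tested. *Il1rl1* passed the abundance filter only through the quiescent libraries, where it was high, and *Il1r1* only through the LPS libraries; of the other 7 genes, 6 were called higher and 0 lower.

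Activation of WT astrocytes with IL-1α, TNFα and C1q raised receptor, ligand and protease genes of the group. Of 9 genes tested, 4 were called higher (*Il1r1*, *Il1rap*, *Il33* and *Casp1*), beside 6% of the 12336 genes tested, and 0 were called lower, beside 5.54%. *Casp1* passed the filter only through the activated libraries, and *Il1rl1* was too low to be tested. With a filter of at least 10 in every library, 2 members were called. The median log2 fold change of the 9 was 0.45, beside 0.01 for all genes. In *SOD1G93A* astrocytes, whose response comes from the joint fit, 3 of 9 genes were called higher (*Il1r1*, *Il1rap* and *Casp1*), beside 6.74% of 12269 genes, and 0 were called lower, beside 6.59%. In the same joint fit the WT response called the same 4 of 9 members higher as above and 0 lower, with 809 of 12269 genes higher and 718 lower. *Casp1* again had a mean under 10 at rest, so its rise was bound up with the filter, and without it 3 of 8 genes were called in WT and 2 of 8 in *SOD1G93A* astrocytes. *Il33* was not called in *SOD1G93A* cells, and the test of the difference between the genotypes' responses is given with it below. That interaction test, read at an adjusted p-value under 0.05, called 0 of the 9 genes in either direction, beside 0.269% of all genes higher and 0.00815% lower; limma put 3 of the 9, and 1018 of all genes (8.30%), at an unadjusted p-value under 0.05.

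Few of the genes were called between genotypes. In activated astrocytes, *Il33* alone of 9 genes tested was called lower in *SOD1G93A* cells, beside 0.124% of 12098 genes, and 0 were called higher, beside 0.521%. That call was lost in each of the 6 fits that left out 1 library, with no filter and without a trend, as given with *Il33* below. In this comparison limma put 2 of the 9 genes (*Il33* and *Il1r1*) and 2464 of all genes (20.4%) at an unadjusted p-value under 0.05. In quiescent astrocytes, limma called 0 of 8 genes, beside 0% of 12271 genes in each direction, and *Il1rl1* and *Casp1* were too low to be tested. At an unadjusted p-value under 0.05, limma counted 1 of the 8 genes and 1068 of all genes, and DESeq2 and edgeR called 7 and 0 genes in all, none of them a member. In LPS microglia, limma called 0 of 8 genes, beside 0% of 10679 genes in each direction, with *Il33* and *Il1rl1* too low to be tested. There, 2 of the 8 genes (*Il1a* and *Il1r1*) and 930 of all genes were at an unadjusted p-value under 0.05, *Il1r1* having passed the filter only through the WT libraries, where it was higher, and DESeq2 and edgeR called 3 and 0 genes in all, none of them a member.

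**Figure D1:**
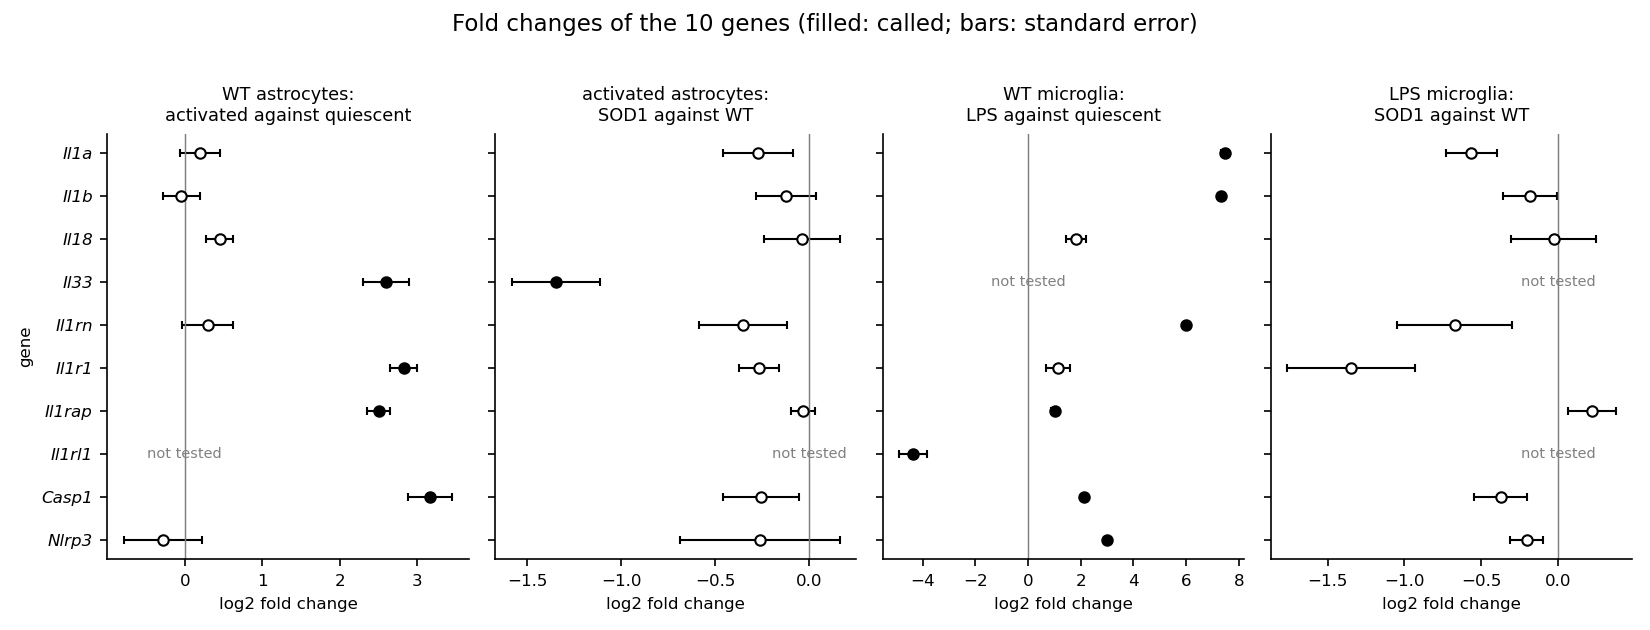
Log2 fold changes of the 10 genes (x axis, with a scale of its own in each panel) in 4 comparisons, from limma fits of 3 against 3 libraries. Points are fitted values, bars are 1 standard error, filled points mark calls, and genes under the abundance filter are written as not tested; calls with LPS in microglia include *Il1a*, *Il1b*, *Il1rn* and *Nlrp3*, those with activation in astrocytes include *Il1r1* and *Il33*, and *Il1rap* and *Casp1* are called in both.

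*Il1a* (chr2:129299610-129309972, minus strand, GRCm38) encodes IL-1α, a ligand that is active without cleavage by caspase-1. Its level was 28.8, 21.96 and 32.0 CPM in the 3 WT quiescent microglia libraries. After LPS it was 3964, 4304 and 4252 in WT microglia and 3036, 3169 and 2307 in *SOD1G93A* microglia. Every LPS library was far above every quiescent library, and the LPS libraries of the 2 genotypes did not overlap, with the third *SOD1G93A* library the lowest. LPS gave a log2 fold change of 7.46 in WT microglia (standard error, SE, 0.12; 176-fold; limma adjusted p = 2.4e-11; higher in 3 of 3 libraries). Between genotypes the log2 fold change was -0.56 (SE 0.16; limma adjusted p = 0.57), which was not called. Without the libraries that stand apart, which leaves 2 against 2, it was -0.46 with an adjusted p of 1.5e-05, under the 2-fold limit, and over all alternatives the adjusted p ranged from 1.5e-05 to 0.69.

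*Il1b* (chr2:129364570-129371139, minus strand) encodes IL-1β, whose precursor needs cleavage to become active. Quiescent WT microglia held 37.8, 27.1 and 35.2 CPM of it. The WT LPS libraries held 4884, 4351 and 4541, and the *SOD1G93A* LPS libraries 4504, 4533 and 3200.0. The rise with LPS left no overlap, while the ranges of the 2 genotypes overlapped, again with the third *SOD1G93A* library the lowest. For LPS the fit gave a log2 fold change of 7.33 (SE 0.11; 160.4-fold; limma adjusted p = 2.2e-11; higher in 3 of 3 libraries). The genotype difference in LPS microglia was -0.18 on the log2 scale (SE 0.18; limma adjusted p = 0.73) and became 0.03 without the libraries that stand apart, so its direction is not settled.

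Both ligands were also detected in astrocytes. *Il1a* lay at 15.9, 21.2 and 30.8 CPM in WT quiescent astrocytes, 38.0, 38.2 and 24.0 in *SOD1G93A* quiescent astrocytes, 22.2, 34.3 and 19.3 in WT activated astrocytes, and 25.0, 15.5 and 19.7 in *SOD1G93A* activated astrocytes. These 4 conditions overlap as neighbours in the order of levels. Quiescent microglia (27.6 ± 5.13 CPM, SD, n = 3) fall among them in CPM but rank above all 4 with median-of-ratios scaling, so their place depends on the scale. *Il1b* ranged from 19.6 to 52.0 over the same 12 libraries. Neither ligand was called between quiescent and activated WT astrocytes, with log2 fold changes of 0.19 (SE 0.26) for *Il1a* and -0.04 (SE 0.24) for *Il1b* and limma adjusted p-values of 0.60 and 0.91. The sign of both values turned when single libraries were left out.

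The astrocyte values of the ligands moved with the microglia markers. In the 12 astrocyte libraries there were 4.69 to 5.94 *Il1a* reads per 100 reads of the 21 microglia markers, with a median of 5.36. The same ratio was 0.0958 to 0.148 in WT quiescent microglia, 37.4 to 44.6 in WT LPS microglia and 18.5 to 30.8 in *SOD1G93A* LPS microglia. The ratio thus held within a narrow range over astrocyte libraries of both genotypes and both states, above that of quiescent microglia and below that of LPS microglia. *Il1b* gave 5.65 to 7.96 reads per 100 marker reads in the 12 astrocyte libraries, 0.118 to 0.175 in WT quiescent microglia and 45.1 to 47.2 in WT LPS microglia. The summed level of the 21 markers was 308, 452 and 557 CPM in WT quiescent astrocytes, 698, 741 and 488 in *SOD1G93A* quiescent astrocytes, 374, 634 and 333 in WT activated astrocytes, and 470.5, 312 and 347 in *SOD1G93A* activated astrocytes. The library with the most marker reads in a condition was also the one with the most *Il1a* in each of the 4 astrocyte conditions. Whether the ligand reads come from microglia in the astrocyte cultures was not tested, and in bulk RNA a difference in the number of cells of a type and a difference in RNA per cell cannot be told apart.

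**Figure D2:**
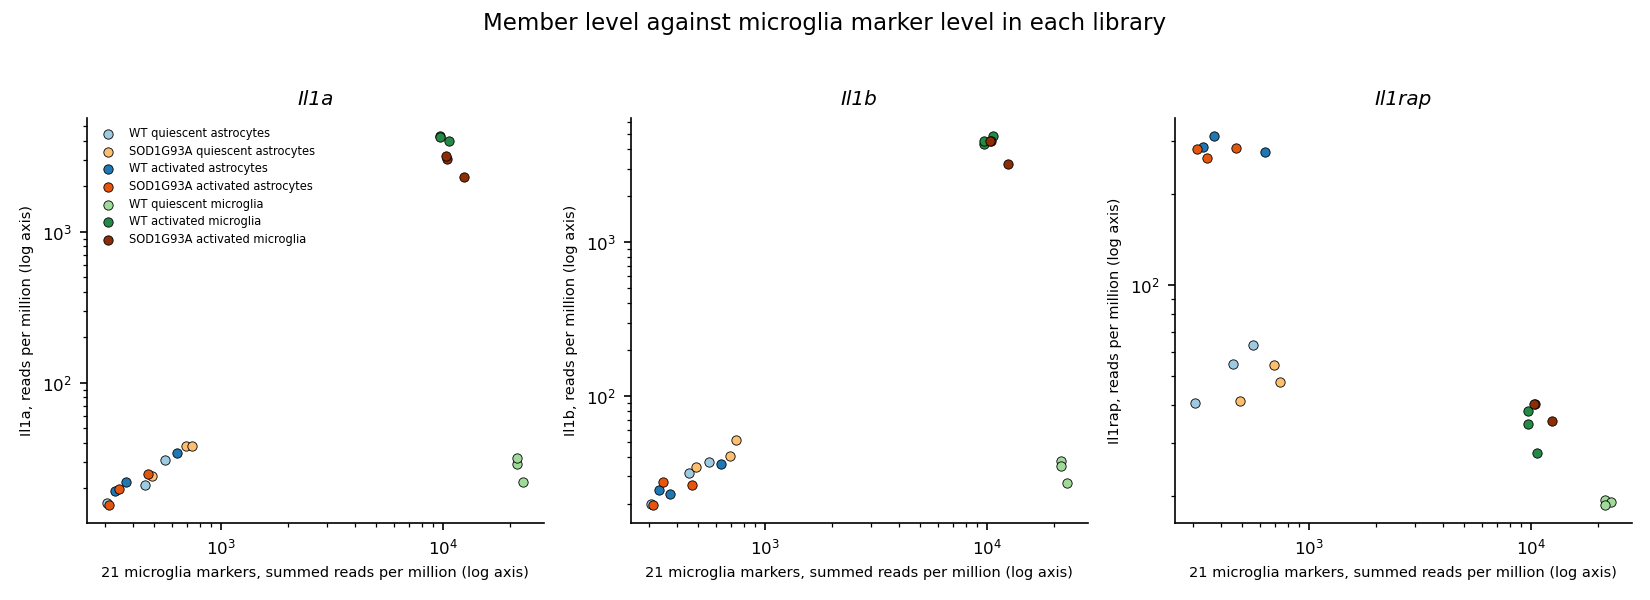
CPM of *Il1a*, *Il1b* and *Il1rap* (y axes, log) against the summed CPM of 21 microglia markers (x axes, log), with 1 point per library and 3 libraries per condition; activated microglia are LPS-treated. In the 12 astrocyte libraries, on the left of each panel, *Il1a* and *Il1b* rise with the markers, while *Il1rap* splits by activation.

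In quiescent astrocytes, the levels of *Il1a* and *Il1b* were not called between genotypes, with log2 fold changes of 0.56 (SE 0.26) and 0.52 (SE 0.24) and limma adjusted p-values of 0.58 and 0.57. Without the libraries that stand apart they were 0.70 and 0.73, with limma adjusted p-values of 0.24 and 0.21 (over all alternatives from 0.24 to 0.99 and from 0.21 to 0.99). The median log2 fold change of the 20 microglia markers tested in that comparison was 0.55, with 0 of the 20 called, beside 0.00 for all genes. In *SOD1G93A* astrocytes the log2 change with activation was -0.64 (SE 0.26; limma adjusted p = 0.057) for *Il1a* and -0.69 (SE 0.23; limma adjusted p = 0.021) for *Il1b*, neither called, and the median of the 20 tested markers was -0.67. The values of the ligands thus lay close to those of the microglia markers in both comparisons, and the part of the markers in them was not tested.

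The proportion between the ligands was set out per library. For values per kilobase, the length of a gene was all its annotated exons joined, not the transcript expressed in these cells. Per kilobase of exon, the ratio of *Il1b* to *Il1a* was 1.14 to 1.36 in WT quiescent microglia, 1.05 to 1.28 in WT LPS microglia and 1.08 to 1.55 over the 12 astrocyte libraries. In *SOD1G93A* LPS microglia it was 1.44 to 1.54, above the 3 WT LPS libraries without overlap; this ratio was not tested.

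*Il18* (chr9:50554827-50581840, plus strand) encodes IL-18, the other caspase-1 substrate of the family. Its level was 1.18, 2.74 and 2.02 CPM in WT quiescent microglia and 8.74, 6.47 and 4.06 in WT LPS microglia. All 3 LPS libraries were above all quiescent ones, on 33 reads in the quiescent group and 123 in the LPS group. Its log2 fold change was 1.82 (SE 0.37; limma adjusted p = 0.0017), just outside the limit, and DESeq2 and edgeR, with log2 fold changes of 2.08 and 2.16, did call it (adjusted p = 6.2e-06 and 0.00033; over all alternatives from 6.2e-06 to 0.0078). In astrocytes *Il18* was higher than in quiescent microglia, at 7.02 to 9.35 in WT quiescent libraries, 10.4 to 11.5 in WT activated, 6.51 to 11.8 in *SOD1G93A* quiescent and 7.63 to 12.9 in *SOD1G93A* activated libraries. The log2 fold change with activation in WT astrocytes was 0.45 (SE 0.18; limma adjusted p = 0.072), which was not called. The gene overlaps an exon of *Bco2* on the opposite strand, which held 296 reads over the 21 libraries, and whether the counting used the strand is not stated. Transcripts on the opposite strand also touch exons of *Il1a* (74 reads over the 21 libraries), *Il1b* (20 reads) and *Il1rap*, which has the most of these 3.

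*Il33* (chr19:29925114-29960718, plus strand) encodes IL-33, a nuclear cytokine released from damaged cells. WT quiescent astrocytes held 1.98, 3.85 and 1.73 CPM, and WT activated astrocytes held 18.2, 14.8 and 12.9. *SOD1G93A* astrocytes held 2.52, 2.90 and 2.73 at rest and 6.45, 7.38 and 3.75 after activation. The activated libraries were above the quiescent ones in both genotypes, and the activated *SOD1G93A* libraries were all below the activated WT libraries. The response of WT astrocytes was a log2 fold change of 2.60 (SE 0.30; 6.04-fold; limma adjusted p = 4.0e-05; higher in 3 of 3 libraries). The response of *SOD1G93A* astrocytes was 1.08 (SE 0.31; limma adjusted p = 0.0092), which was not called. The interaction was -1.51 (SE 0.44; limma adjusted p = 0.27), so a difference between the 2 responses was not shown.

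In activated astrocytes the log2 fold change of *Il33* in *SOD1G93A* against WT cells was -1.35 (SE 0.23; limma adjusted p = 0.00079; lower in 3 of 3 libraries). That call stood close to the limit. It was lost in each of the 6 fits that left out 1 library, WT activated replicates 1, 2 and 3 and *SOD1G93A* activated replicates 1, 2 and 3, with log2 fold changes from -1.54 to -1.07 and adjusted p-values from 0.0012 to 0.017. It was also lost with no filter on low values (adjusted p = 0.0041) and with limma without a trend (0.059), while DESeq2 and edgeR made it (0.00065 and 0.00035); over all alternatives the adjusted p ranged from 5.8e-06 to 0.059. The value rests on 266 reads in the 3 WT libraries and 61 in the 3 *SOD1G93A* libraries, the third of which held 8. These totals are not scaled to depth, which was 5047999 to 6768201 reads in the WT and 2135439 to 3929272 in the *SOD1G93A* libraries. Depth thus differed with genotype in this comparison without overlap, and its part in the *Il33* value was not tested. In microglia *Il33* was near 0, with 4 reads in the 3 quiescent libraries, 10 in the WT LPS libraries and 6 in the *SOD1G93A* LPS libraries.

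Other ligands of the family were almost absent. Of 9 names on a list of them, 5 are in the tables, under older symbols, and 0 of the 5 had enough reads to be tested in any comparison. *Il1f5*, *Il1f8* and *Il1f10* had 0 reads in all 21 libraries. *Il1f6* had 15 reads in the WT LPS microglia, 9 in the *SOD1G93A* LPS microglia and 0 in the other conditions. Against a floor of 3 reads over the WT quiescent group it was 5.49-fold higher with LPS in WT microglia. That ratio leaves out the counting error of the 15 reads. *Il1f9* was seen only in microglia, with 2, 6 and 7 reads in the quiescent, WT LPS and *SOD1G93A* LPS conditions.

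*Il1rn* (chr2:24336853-24351494, plus strand) encodes the IL-1 receptor antagonist. It lay at 60.2, 60.4 and 68.3 CPM in WT quiescent microglia and at 3249.8, 3669.8 and 3481 in WT LPS microglia. *SOD1G93A* LPS microglia gave 2958, 3199 and 1072. LPS raised it in every library, and the third *SOD1G93A* library, one of those that stand apart, fell far below all others treated with LPS. With LPS the log2 fold change was 5.996 (SE 0.09; 63.8-fold; limma adjusted p = 2.2e-11; higher in 3 of 3 libraries). Between genotypes in LPS microglia it was -0.67 (SE 0.37; limma adjusted p = 0.59), not called, and without the third *SOD1G93A* library it was -0.15 (adjusted p = 0.91). Without both LPS libraries that stand apart, 2 against 2, it was -0.21 (limma adjusted p = 0.025; over all alternatives from 0.025 to 0.91), under the 2-fold limit.

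In astrocytes the level of *Il1rn* was 10.4 to 31.5 CPM over the 12 astrocyte libraries, below the quiescent microglia in all of them. There were 3.34 to 5.26 *Il1rn* reads per 100 reads of the 21 microglia markers in astrocytes, 0.263 to 0.317 in WT quiescent microglia and 30.7 to 38.0 in WT LPS microglia. Between genotypes in quiescent astrocytes its log2 fold change was 0.70 (SE 0.28; limma adjusted p = 0.52), and with activation in WT astrocytes it was 0.29 (SE 0.33; limma adjusted p = 0.52). In *SOD1G93A* astrocytes the value with activation was -0.76 (SE 0.31; limma adjusted p = 0.056), with the groups apart. Without the libraries that stand apart, the first 2 of these were 0.90 (limma adjusted p = 0.17; over all alternatives from 0.17 to 0.99) and 0.59 (limma adjusted p = 0.10; from 0.10 to 0.98). None of the 3 was called, and the part of the markers in these values was not tested.

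The balance of antagonist to agonists was lower in LPS than in quiescent microglia. Per kilobase of exon, *Il1rn* over the sum of *Il1a* and *Il1b* was 0.316, 0.431 and 0.356 in the WT quiescent libraries. It was 0.129, 0.149 and 0.139 in the WT LPS libraries and 0.137, 0.145 and 0.0680 in the *SOD1G93A* LPS libraries. All quiescent libraries were above all LPS libraries, although the antagonist itself rose. This ratio was not tested, and the smallest p-value that an exact two-sided permutation test of 3 against 3 libraries allows is 0.1. Over the 12 astrocyte libraries the ratio was 0.102 to 0.157, overlapping the 0.0680 to 0.149 of the 6 LPS microglia libraries and below all quiescent microglia.

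**Figure D3:**
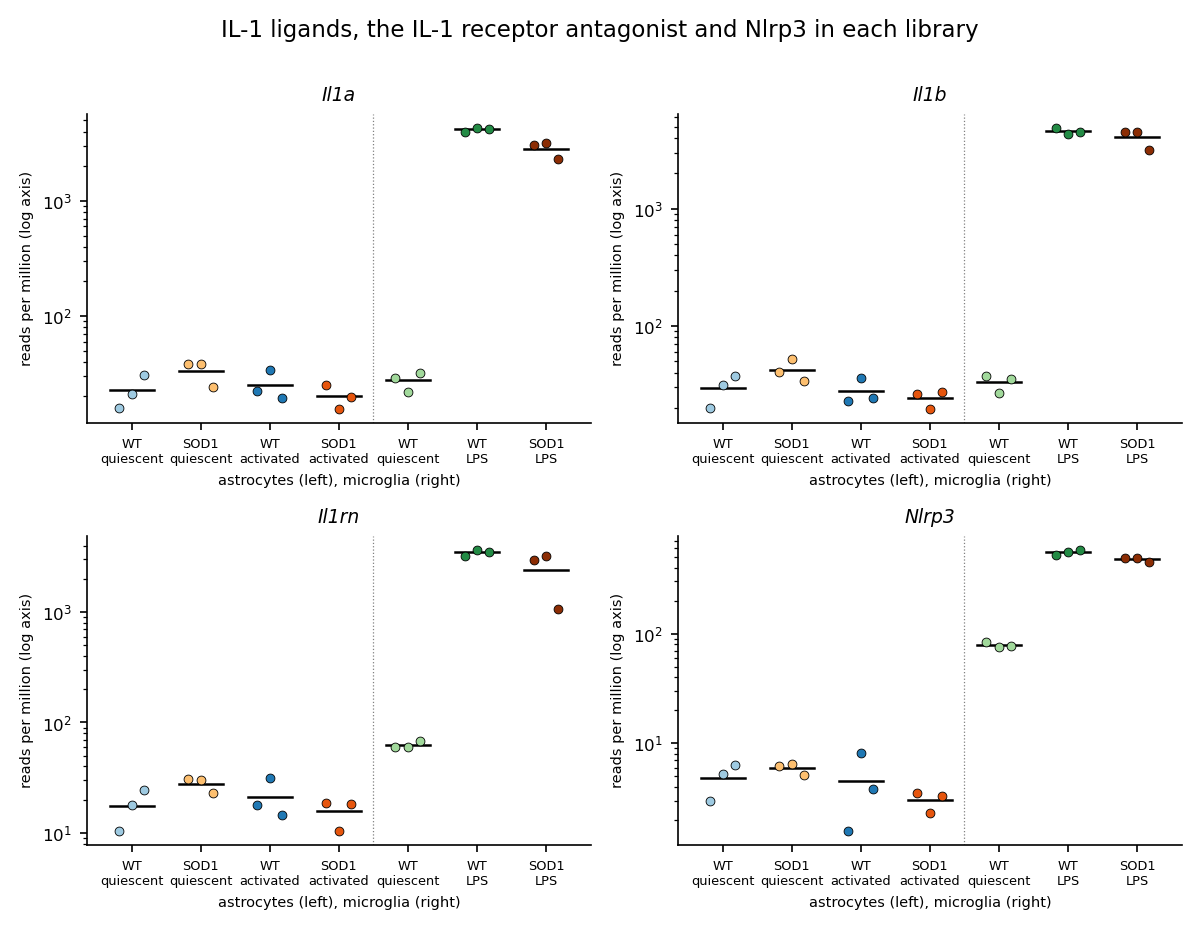
CPM (y axes, log) of *Il1a*, *Il1b*, *Il1rn* and *Nlrp3* in the 7 conditions (x axes), with 1 point per library and a line at the mean of 3; SOD1 stands for *SOD1G93A*. LPS microglia are above all other conditions for each gene, and the third *SOD1G93A* LPS library gives the low *Il1rn* value of 1072.

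*Il1r1* (chr1:40225080-40317257, plus strand) encodes the receptor chain that binds IL-1. WT quiescent astrocytes held 4.96, 5.22 and 6.91 CPM and WT activated astrocytes 43.4, 40.0 and 38.4. *SOD1G93A* astrocytes held 4.93, 3.45 and 4.56 at rest and 31.7, 36.9 and 30.0 after activation. Activated libraries were above quiescent libraries with no overlap in either genotype. The log2 fold change with activation was 2.83 in WT astrocytes (SE 0.17; 7.09-fold; limma adjusted p = 3.8e-07; higher in 3 of 3 libraries). In *SOD1G93A* astrocytes it was 2.96 (SE 0.18; limma adjusted p = 7.4e-10; higher in 3 of 3 libraries), and the interaction was 0.14 (SE 0.26; limma adjusted p = 0.92). The 3 activated *SOD1G93A* libraries were below the 3 activated WT libraries, by a log2 fold change of -0.27 (SE 0.11) that was not called (limma adjusted p = 0.16).

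In CPM, each microglia library held less *Il1r1* than any astrocyte library, but with median-of-ratios scaling over all libraries WT LPS microglia (15.1 to 22.5) overlapped WT (20.1 to 30.5) and *SOD1G93A* (14.1 to 21.2) quiescent astrocytes. The WT quiescent microglia libraries had 1.48, 2.35 and 0.576 CPM, the WT LPS libraries 2.83, 3.14 and 2.14, and the *SOD1G93A* LPS libraries 0.507, 1.30 and 1.24. The rise with LPS in WT cells (log2 fold change 1.15, SE 0.46, limma adjusted p = 0.052) and the genotype difference in LPS cells (-1.35, SE 0.42, limma adjusted p = 0.57) rest on 25, 49 and 23 reads in these groups and were not called, and the former varied from 0.68 to 1.56 as single libraries were left out.

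*Il1rap* (chr16:26581704-26730117, plus strand) encodes the accessory protein shared by the IL-1 and IL-33 receptors. It was 40.7, 54.7 and 63.2 CPM in WT quiescent astrocytes and 312, 276 and 287 in WT activated astrocytes. In *SOD1G93A* astrocytes it was 54.5, 47.9 and 41.3 at rest and 283, 283 and 263 after activation. The states did not overlap in either genotype, and the genotypes overlapped in both states. The log2 fold change with activation was 2.50 in WT astrocytes (SE 0.15; 5.67-fold; limma adjusted p = 3.6e-07; higher in 3 of 3 libraries) and 2.62 in *SOD1G93A* astrocytes (SE 0.14; limma adjusted p = 1.8e-10). The interaction was 0.11 (SE 0.20; limma adjusted p = 0.91), and between genotypes the log2 fold change was -0.15 (SE 0.18) at rest and -0.03 (SE 0.06) after activation.

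In WT microglia *Il1rap* was 19.4, 19.2 and 18.7 CPM at rest and 27.8, 38.4 and 34.7 after LPS. The groups did not overlap. The log2 fold change of 1.01 (SE 0.14; limma adjusted p = 0.00016; higher in 3 of 3 libraries) sat at the 2-fold limit, and its call was lost with a pseudocount of 5 (0.98), with TMM scaling (1.00) and with limma without a trend (adjusted p = 0.0013). It was also lost without WT quiescent replicate 1 (limma adjusted p = 0.0013), 2 (adjusted p = 0.0012) or 3 (log2 fold change 1.00) and without WT LPS replicate 2 (0.89) or 3 (0.99), and it was kept without WT LPS replicate 1 (1.16); adjusted p-values over all alternatives ranged from 3.3e-07 to 0.0013.

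Receptor and accessory chain rose together in astrocytes. Per kilobase of exon, *Il1rap* over *Il1r1* was 4.59 to 5.87 in WT quiescent, 5.08 to 7.77 in *SOD1G93A* quiescent, 3.85 to 4.18 in WT activated and 4.30 to 5.01 in *SOD1G93A* activated astrocytes. By this measure of length, the accessory chain was the more abundant in every astrocyte library. In microglia the ratio ranged from 4.57 to 44.6, on few *Il1r1* reads.

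*Il1rl1* (chr1:40429570-40465415, plus strand) encodes the IL-33 receptor and, of the conditions analysed, was highest in WT quiescent microglia. It was 4.43, 6.67 and 3.03 CPM in those libraries, from 83 reads, and which cells in them carried it was not tested. The WT LPS libraries gave 0.123, 0 and 0 and the *SOD1G93A* LPS libraries 0, 0 and 0.247, from 1 read in each group. LPS libraries of both genotypes were all below the quiescent libraries. From the reads, *Il1rl1* was 75.6-fold lower with LPS in WT microglia, with a 95% counting interval of 13.2 to 3021. limma called it (adjusted p = 5.0e-05; lower in 3 of 3 libraries), with a fitted log2 fold change of -4.35 (SE 0.53) that depends on the value added before the logarithm, from -5.15 with 0.5 to -2.46 with 5. Of the 6 fits that left out 1 library, 5 tested it and each called it, with limma adjusted p-values from 3.2e-06 to 0.00098. The remaining fit did not test it. The 12 astrocyte libraries held 20 reads of it in all, at most 5 in any library, and it was not tested there.

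On a list of 8 other receptors and binding proteins of the family, all in the tables, *Il18bp*, which encodes the IL-18 binding protein, was the only call, higher with LPS in WT microglia (log2 fold change 3.13, SE 0.21, limma adjusted p = 5.3e-07; 1 of 2 tested, beside 10.2% of all genes). The decoy receptor gene *Il1r2* went from 3 reads in the WT quiescent microglia to 12 after LPS, a ratio of 4.39 with a 95% counting interval of 1.19 to 24.3. Those 12 reads were uneven, from 1 to 8 per library, and the interval covers counting error only. *Il18rap*, which encodes a chain of the IL-18 receptor, had 45 reads in WT quiescent microglia and 0 in WT LPS microglia. Against the floor of 3 reads that is 13.7-fold lower, which leaves out the counting error of the 45 reads. Its partner *Il18r1* had 0 reads in microglia. In WT astrocytes *Il18rap* went from 3 to 19 reads with activation, a ratio of 5.38 (95% counting interval 1.58 to 28.4). In *SOD1G93A* astrocytes it went from 2 to 9 reads, a ratio of 9.23 (1.91 to 87.8). Both reads at rest came from 1 library, and the 9 reads ran from 1 to 5 per library. The intervals of *Il18rap* also cover counting error only.

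**Figure D4:**
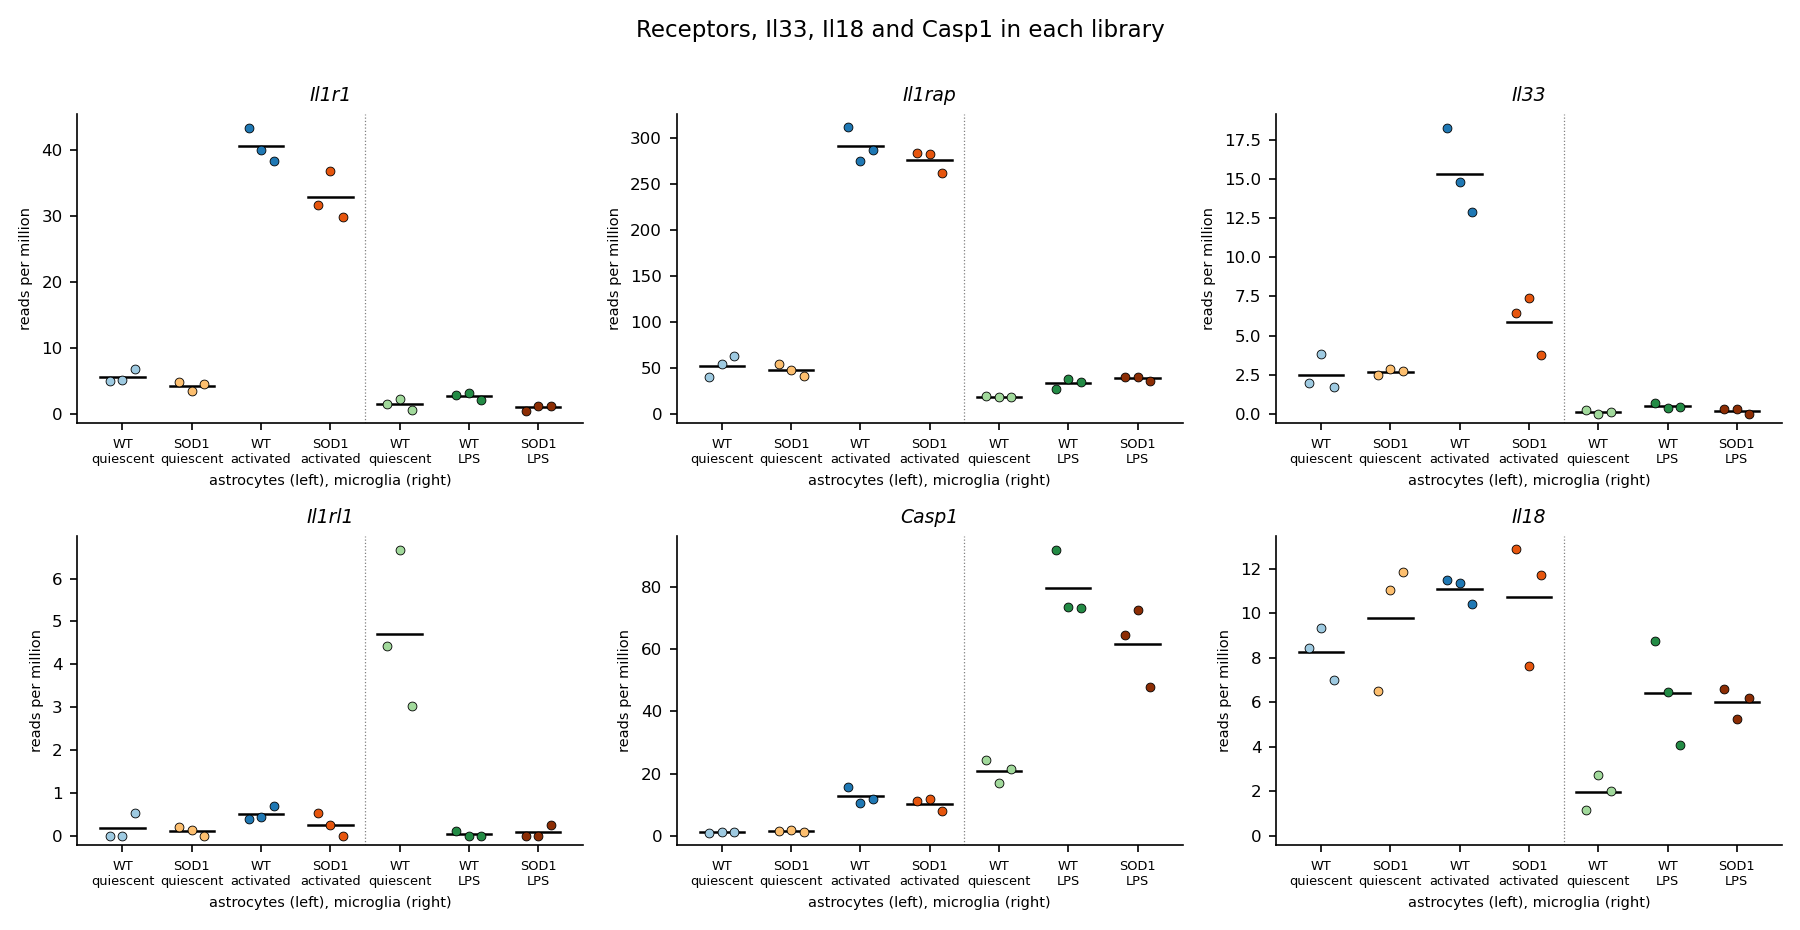
CPM (y axes, linear, with a scale of its own in each panel) of *Il1r1*, *Il1rap*, *Il33*, *Il1rl1*, *Casp1* and *Il18* in the 7 conditions (x axes), with 1 point per library and a line at the mean of 3; SOD1 stands for *SOD1G93A*. *Il1r1*, *Il1rap* and *Il33* are highest in activated astrocytes, *Casp1* in LPS microglia and *Il1rl1* in quiescent microglia.

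*Casp1* (chr9:5298517-5307265, plus strand) encodes the protease that cleaves the IL-1β and IL-18 precursors. In WT microglia it was 24.3, 16.9 and 21.6 CPM at rest and 91.9, 73.4 and 73.2 after LPS. *SOD1G93A* LPS microglia held 64.4, 72.7 and 47.7. LPS libraries of both genotypes were above the quiescent ones, and each *SOD1G93A* library was below each WT library treated with LPS. The LPS response was a log2 fold change of 2.14 (SE 0.14; 4.40-fold; limma adjusted p = 4.0e-07; higher in 3 of 3 libraries). In the within-table normalized counts the genotypes overlapped, and the difference of -0.37 (SE 0.17; limma adjusted p = 0.58) was not called and became -0.10 without the libraries that stand apart.

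Astrocytes had little *Casp1* at rest and gained it on activation. WT libraries held 0.992, 1.37 and 1.40 CPM at rest and 15.8, 10.6 and 12.001 after activation, and *SOD1G93A* libraries 1.68, 2.07 and 1.21, then 11.3, 11.96 and 7.96. The states did not overlap in either genotype. Activation gave log2 fold changes of 3.17 in WT (SE 0.28; 8.999-fold; limma adjusted p = 5.8e-06) and 2.59 in *SOD1G93A* astrocytes (SE 0.29; limma adjusted p = 1.1e-06), each higher in 3 of 3 libraries, with an interaction of -0.57 (SE 0.41; limma adjusted p = 0.74). Unlike the IL-1 ligands, *Casp1* did not keep a steady proportion to the microglia markers in astrocytes, with 0.241 to 0.323 reads per 100 marker reads in the 6 quiescent libraries and 1.68 to 4.24 in the 6 activated ones.

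*Nlrp3* (chr11:59541568-59566956, plus strand) encodes the inflammasome sensor. It stood at 84.3, 74.9 and 77.8 CPM in WT quiescent microglia and 517, 556 and 581 in WT LPS microglia. *SOD1G93A* LPS microglia gave 491, 491 and 447. LPS libraries were above quiescent libraries throughout, and the *SOD1G93A* libraries lay just below the WT ones without overlap. The LPS response was a log2 fold change of 3.02 (SE 0.09; 8.09-fold; limma adjusted p = 7.9e-10; higher in 3 of 3 libraries), and the genotype difference was -0.20 (SE 0.11; limma adjusted p = 0.59), not called. Without the libraries that stand apart, 2 against 2, it was -0.21 (limma adjusted p = 0.021; over all alternatives from 0.021 to 0.91), under the 2-fold limit.

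In astrocytes *Nlrp3* was low, at 1.58 to 8.13 CPM over the 12 libraries, and the 4 conditions overlapped as neighbours in the order of levels, although the *SOD1G93A* libraries at rest (5.16 to 6.48) were all above those after activation (2.29 to 3.49). Activation gave log2 values of -0.28 in WT (SE 0.50; limma adjusted p = 0.70) and -0.86 in *SOD1G93A* cells (SE 0.43; limma adjusted p = 0.12), neither called, and the WT value ran from -0.82 without WT activated replicate 2 to 0.28 without WT activated replicate 1. There were 0.424 to 1.28 *Nlrp3* reads per 100 microglia marker reads in astrocytes, beside 0.327 to 0.390 in quiescent and 4.88 to 6.04 in LPS WT microglia.

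Other inflammasome genes were read from a list of 20, of which 19 are in the tables. With LPS in WT microglia 15 were tested, 4 were called higher and 3 lower, beside 10.2% and 10.6% of all genes, with a median log2 fold change of -0.05 beside 0.00 for all genes. *Casp4*, for the caspase that senses intracellular LPS, had the largest rise (4.03, SE 0.14, limma adjusted p = 3.3e-09), with *Mefv* at 3.09 (SE 0.33), *Ninj1* at 1.40 (SE 0.08) and *Gsdmd* also called higher. Called lower were *Nlrp1b* (-1.52, SE 0.17), *Txnip* (-1.23, SE 0.08) and *Pycard*, the gene of the adaptor that joins NLRP3 to caspase-1 (-1.34, SE 0.20, limma adjusted p = 0.0002). In WT astrocytes 7 were tested and *Casp4* alone was called, higher with activation, beside 6% of all genes (4.73, SE 0.35, limma adjusted p = 1.5e-06), and in *SOD1G93A* astrocytes it was 4.86 (SE 0.31, limma adjusted p = 1.2e-09). *Casp4* in astrocytes and *Mefv* in microglia had means under 10 at rest and passed the filter through the treated libraries. No gene of the list was called between genotypes.

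Genes acting just below the IL-1 receptor were read from a list of 18, all tested in each comparison except between genotypes in quiescent astrocytes, where 17 were. Of the 18, 3 were called higher with activation in WT astrocytes, *Map3k8* (4.47, SE 0.59), *Myd88* (1.94, SE 0.21) and *Irak2* (1.56, SE 0.19), and 0 lower, with a median of 0.14, beside 6% and 5.54% of all genes called. *Map3k8* had a mean under 10 at rest and passed the filter through the activated libraries. The same 3 were called in *SOD1G93A* astrocytes, beside 6.74% of all genes, with *Map3k8* again under 10 at rest. With LPS in WT microglia 5 were called higher and 0 lower, beside 10.2% and 10.6% of all genes, among them *Irak3*, which encodes an inhibitor of the pathway (4.55, SE 0.11, limma adjusted p = 2.8e-10). None was called between genotypes.

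Known response genes of IL-1, which also respond to TNFα and to LPS, were read from a list of 20. With activation 19 of 19 tested were higher in WT astrocytes (median log2 fold change 3.37) and 19 of 19 in *SOD1G93A* astrocytes (median 2.93), and 19 of 20 were higher with LPS in WT microglia (median 4.67), beside all-genes medians of 0.01, -0.00 and 0.00 and shares called higher of 6%, 6.74% and 10.2%. Some of these genes passed the filter only through the treated group, where they are high: 5 in WT astrocytes (*Bcl3*, *Birc3*, *Csf2*, *Mmp3* and *Zc3h12a*), 3 in *SOD1G93A* astrocytes (*Bcl3*, *Csf2* and *Mmp3*) and 3 in microglia (*Csf2*, *Csf3* and *Mmp3*). Without them the counts were 14 of 14, 16 of 16 and 16 of 17. Between genotypes in activated astrocytes *Mmp3* alone was called, lower in *SOD1G93A* cells (-1.30, SE 0.16, limma adjusted p = 1.9e-05; 1 of 19 tested, beside 0.124% of all genes), with a list median of -0.17. In that comparison limma called 78 genes in all, but 1 without a trend. The parts of IL-1α, TNFα and C1q in these changes cannot be told apart, since they were given together.

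Levels of different genes were set side by side per kilobase of exon, and their order can depend on that choice of length. In WT quiescent astrocytes *Il1b* was highest of the 10 (15.5 ± 4.69 CPM per kilobase, SD, n = 3), then *Il1a* (11.5 ± 3.83) and *Il18* (8.02 ± 1.14). In WT activated astrocytes *Il1rap* led (25.7 ± 1.63). WT quiescent microglia had *Nlrp3* at 19.5 ± 1.18 and *Il1b* at 17.5 ± 2.94, and WT LPS microglia had *Il1b* at 2408 ± 142, *Il1a* at 2114 ± 92.8 and *Il1rn* at 626 ± 38.0. Across conditions, *Il1a*, *Il1b*, *Il1rn*, *Casp1* and *Nlrp3* were highest in LPS microglia. The order of the 7 conditions was the same in CPM and with median-of-ratios scaling for 4 of the 10 genes (*Il1rn*, *Il33*, *Casp1* and *Nlrp3*). These orders are described and were not tested; the deposited tables were normalized separately.

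Some genes followed members closely over the 21 libraries, given as description only because the cell types and treatments dominate. *Il1a* and *Il1b* followed each other (Pearson r = 0.9985), and *Nlrp3* ran with *Grap* (0.996) and *Cd36* (0.996). *Il1r1* ran with *Pde1a* (0.978) and *Osmr* (0.976), *Il1rap* with *Rgs16* (0.990) and *Cdkn2b* (0.987), and *Il33* with *Cxcl12* (0.977) and *Slit2* (0.971).

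Markers of the cells themselves and of other cells that can carry these genes were read in the same libraries, and their part in the results was not tested. Beside the LPS response of the members, 12 of 22 microglia markers were called lower and 0 higher (median log2 fold change -1.20), beside 10.6% and 10.2% of all genes. Of 12 monocyte and neutrophil markers 11 are in the tables, and their sum was 79.7, 96.1 and 82.7 CPM in WT quiescent, 121, 127 and 125 in WT LPS and 106, 105 and 133 in *SOD1G93A* LPS microglia, led by *Csf3r*. With LPS, 2 of the 3 of them tested, *Ccr2* and *Ly6c2*, were called higher (median 1.82), *Ly6c2* with a mean under 10 at rest. Of 12 mast cell and innate lymphoid markers, which are cells known for *Il1rl1*, 9 were at 0 in WT quiescent microglia. Their sum there was 49.0, 41.6 and 48.3 CPM, led by *Rora* (22.3 to 25.9), and of the 2 tested with LPS *Il7r* was called higher and *Rora* lower. The oligodendrocyte lineage sum was 1349 to 1389 CPM in WT quiescent and 143 to 145 in WT LPS microglia, led by *Cspg4*, and *Cspg4* and *Mbp* were called lower of 6 tested. Of 4 endothelial markers tested, *Kdr* and *Pecam1* were called higher and *Flt1* and *Vwf* lower. Of 13 astrocyte markers tested, *Gja1* and *Slc1a2* were called higher and *Ndrg2* lower, and of 5 pericyte and fibroblast markers *Dcn* was called higher, *Dcn* and *Pecam1* with a mean under 10 in one of the groups.

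With activation of WT astrocytes, where *Il1r1*, *Il1rap*, *Il33* and *Casp1* were called higher, 4 of 15 tested astrocyte markers were called lower (*Aldoc*, *Fgfr3*, *Hepacam* and *Ndrg2*), beside 5.54% of all genes. In *SOD1G93A* astrocytes, of 15 tested, *Clu* and *Gfap* were called higher and *Aldoc*, *Fgfr3* and *S100b* lower, beside 6.74% and 6.59% of all genes, *S100b* with a mean under 10 in one group. The 14 oligodendrocyte lineage markers summed to 2973 to 3152 CPM in WT quiescent and 1103 to 1165 in WT activated astrocytes, led by *Olig1*, and 4 of 9 tested were called lower. In *SOD1G93A* astrocytes they summed to 3310.4 to 3565 at rest and 1077 to 1142 after activation, and *Gpr17*, *Olig1* and *Olig2* were called lower of 9 tested, beside 6.59% of all genes, *Gpr17* with a mean under 10 in one group. The 12 endothelial markers summed to 13.2 to 16.6 in WT and 10.4 to 11.7 in *SOD1G93A* astrocytes at rest, and to 139.9 to 157 and 113 to 121 after activation. *Flt1* led that sum in each of these conditions and made up most of it after activation, but it was 4.62 to 6.07 CPM in *SOD1G93A* cells at rest. It was the only one tested and was called higher (log2 fold change 4.02 in WT and 4.41 in *SOD1G93A* cells). *Cldn5*, *Ly6c1* and *Tie1* were at 0 in both states. Of 12 pericyte and fibroblast markers, summing to 62.0 to 84.5 at rest and 70.8 to 88.4 after activation in WT cells and led by *Acta2*, 5 were tested in WT astrocytes; *Dcn* and *Lum* were called higher, both with means under 10 at rest, and *Acta2* lower. In *SOD1G93A* astrocytes *Dcn*, *Lum* and *Pdgfrb* were called higher of 4 tested, beside 6.74% of all genes, *Dcn* and *Lum* again with means under 10 at rest.

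Of 14 neuron markers, led by *Map2*, 10 were tested; *Nefl*, *Nefm* and *Tubb3* were called higher and *Map2* lower with activation in both genotypes, beside 6% higher and 5.54% lower of all genes in WT and 6.74% and 6.59% in *SOD1G93A* cells. *Nefl* in WT cells and *Nefl* and *Nefm* in *SOD1G93A* cells had means under 10 at rest, and without such genes 2 and 1 were called higher. Their sum was 793 to 1022 CPM in WT quiescent and 462 to 508 in WT activated astrocytes. Beside the lower *Il33* of activated *SOD1G93A* astrocytes, *Dcx* alone of these markers was called lower (1 of 10 tested, beside 0.124% of all genes; list median -0.65), and no marker of the other lists was called in that comparison. Without a trend, limma called 1 gene in all there, so the calls of *Dcx* and *Mmp3* cannot both hold in that fit.

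The 250 bases before the starts of *Il1a* and *Il1b* are shown because these genes moved most, on the minus strand at chr2:129309973-129310222 and chr2:129371140-129371389 (GRCm38.p6), with capitals marking motif matches. *Il1a* holds an AP-1 match, TGACTCA, 12 to 6 bases before its start, and both hold TATAAA.
Il1a: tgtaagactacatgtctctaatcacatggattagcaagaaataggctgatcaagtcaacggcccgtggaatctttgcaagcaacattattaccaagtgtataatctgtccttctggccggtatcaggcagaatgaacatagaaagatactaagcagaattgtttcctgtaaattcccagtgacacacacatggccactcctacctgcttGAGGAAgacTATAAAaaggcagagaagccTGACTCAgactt
Il1b: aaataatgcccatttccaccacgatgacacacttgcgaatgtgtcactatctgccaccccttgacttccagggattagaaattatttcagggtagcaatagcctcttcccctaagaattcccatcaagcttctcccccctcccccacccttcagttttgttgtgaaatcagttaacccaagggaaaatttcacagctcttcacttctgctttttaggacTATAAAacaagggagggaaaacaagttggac

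Counted per gene, over 27025 gene symbols, 14.3% have the TATAAA match, as do *Il1a*, *Il1b*, *Il18* and *Il33* of the 10 members. The AP-1 match is found for 7.82% of genes, with *Il1a* and *Il1rn* among them, and the kappa-B match for 4.46%, with *Il1r1* and *Nlrp3*. An ETS core match is found for 25.9%, with *Il1a*, *Casp1* and *Nlrp3*, a C/EBP match for 10.8%, with *Il1r1*, *Il33* and *Il1rl1*, and an interferon response match for 8.18%, with 0 of the 10. Members with several promoters count once, and binding was not measured.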

How the data were processed

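The authors made strand-specific poly(A) libraries, used STAR 2.7.3a for alignment and RSEM for counting, and normalized each table with DESeq2 in R 3.6.1, so the deposited signal values are counts divided by a size factor. Whether counting used the strand is not stated. Whole reads were recovered, to within 0.01 reads, for 100% of values and gave the CPM. The deposited columns for mean of normalized counts, log2 fold change, its standard error, test score, p and adjusted p were not used. limma 3.58.1 (R 4.3.3) was fitted with a trend and Benjamini-Hochberg adjustment. On recovered reads, DESeq2 1.42.0 called 7, 1536, 83, 2395 and 3 genes in genotype at rest, activation, genotype when activated, LPS, and genotype with LPS, and edgeR 4.0.16 called 0, 1477, 84, 2357 and 0. Groups with 1 to 3 reads were compared by an exact counting interval, and groups with 0 by a floor of 3 reads. Genes named are the 10 members, genes overlapping them, called genes of a list, family genes with few or no reads, markers at 0 or leading a sum, and genes with the largest values. Members and lists were chosen with earlier results of these data known.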

Additional observations from a re-analysis of the deposited data

How the results depend on the processing

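Of the members' fold changes under alternatives, 1058 kept side and direction, 31 reversed, 5 became stronger and 16 weaker; of the counts, 194 stayed and 20 moved. Fits without the libraries standing apart (WT quiescent astrocytes 3, *SOD1G93A* quiescent astrocytes 1, WT LPS 1, *SOD1G93A* LPS 3) were added after seeing the data, and the cause was not tested. Replicate numbers did not pair samples (r -0.44 to 0.06), and a replicate block left the members' counts unchanged.

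Genotype at rest, all genes: DESeq2 7, apart left out 2, adjusted p under 0.05 7; *Il33* -0.0022 with apart left out. Leaving out 1 library, *Il1rap* ran from -0.34 to 0.0046 and *Il33* from -0.037 to 0.48. Activation in WT astrocytes: 2 members with at least 10 in every library, 4722 genes at adjusted p under 0.05; *Il1b* 0.17 with apart left out. Leaving out 1 library, *Il1a* ran from -0.051 to 0.46, *Il1b* from -0.32 to 0.17, *Il1rn* from -0.054 to 0.59, *Nlrp3* from -0.82 to 0.28.

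Genotype in activated astrocytes: members 0 with no filter, 0 without a trend and 0 to 0 leaving out 1 library; all genes 1 without a trend and 879 at adjusted p under 0.05. Leaving out 1 library, *Il1b* ran from -0.24 to 0.069, *Il1rap* from -0.080 to 0.014, *Il18* from -0.18 to 0.185, *Nlrp3* from -0.82 to 0.27. LPS: 6185 genes at adjusted p under 0.05.

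Genotype with LPS, all genes: DESeq2 3, apart left out 3, adjusted p under 0.05 1; with apart left out *Il1b* 0.027 and *Il18* 0.20. Leaving out 1 library, *Il1b* ran from -0.275 to 2.8e-05 and *Il18* from -0.31 to 0.20. Response of *SOD1G93A* astrocytes: 5 members at adjusted p under 0.05; *Il18* -0.018 with apart left out, and from -0.018 to 0.45 leaving out 1 library. Interaction, leaving out 1 library: *Il1r1* -0.022 to 0.26, *Il1rap* -0.044 to 0.31, *Il18* -0.46 to 0.0024.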
